A study of Mus musculus with 6 samples.

Results

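YAP1 is a transcriptional coactivator, and the TEAD proteins are the factors that bring it to DNA. This account covers 10 mouse genes of that axis, chosen by symbol: the coactivator Yap1, the DNA-binding factors Tead1 and Tead4, the regulators Lats2, Amotl1 and Amotl2, which restrain YAP1, and Ajuba, which inhibits LATS kinases, and the widely used targets Ccn1, Ccn2 and Ankrd1. All 10 of 10 symbols were found among the 22186 genes of the table, and all 10 passed the filter of a mean of at least 1 TPM (a unit that corrects reads for gene length and scales every library to the same total). Messenger RNA had been sequenced from primary adipose-derived stromal cells (ADSCs, fibroblast-like cells of fat) of wild-type mice. The control group was ADSCs with no Treg treatment (n = 3 libraries), and the other was ADSCs harvested when they had shared a culture with regulatory T cells for 48 h (Treg co-culture, n = 3). Age, sex and strain are not in the labels, and no group was co-cultured with another cell type, so effects of Treg and of any co-culture cannot be told apart. The labels do not say whether replicates were separate animals or cultures, so the error behind each p-value may be technical only.

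In the Hippo pathway, the kinases MST1/2 activate the kinases LATS1 and LATS2, which phosphorylate YAP1 and its paralog TAZ (gene Wwtr1) and keep them out of the nucleus. Unphosphorylated YAP1 enters the nucleus, binds a TEAD factor and raises genes such as Ccn1, Ccn2 and Ankrd1, and also Lats2, Amotl1, Amotl2 and Ajuba, some of which feed back on the pathway. In stromal cells the axis responds to spreading, stiffness and cell density, and in muscle precursors TEAD factors bind promoters of contractile genes. Most control of YAP1 and TAZ is by phosphorylation and localisation of the proteins, which transcript levels do not measure.

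Of 9 adipose stromal markers all were tested, and 3 were higher and 5 lower at a limma adjusted p under 0.05. Over all 12405 genes tested 19.8% were called higher and 18.0% lower. Among these markers, Col1a1 stood at 6705 ± 317 TPM in controls (mean ± SD, n = 3) and was called lower after co-culture. That call was lost under quantile normalization (log2 fold change -0.01, limma adjusted p = 0.751). The 5 defining T cell genes Cd3d, Cd3e, Cd3g, Cd2 and Cd4 were listed at 0 in all 6 libraries, and the summed TPM of 11 T cell markers was 3.25 to 3.76 in controls and 3.63 to 4.17 after co-culture. Skeletal muscle transcripts were present in controls and higher after co-culture, with 12 of 12 markers called higher and summed TPM of 1233 to 1309 against 3392 to 3441. Treg co-culture 1 stood apart in liver and adult heart transcripts: its 6 liver markers summed to 97.5 TPM against at most 1.87 elsewhere, and its 6 heart markers to 24.5 TPM against at most 1.72. Macrophage markers summed to 91.4 to 98.2 TPM in controls and 65.5 to 78.1 after co-culture, endothelial ones to 38.0 to 40.6 and 34.0 to 35.4, adipocyte ones to 92.1 to 105 and 69.1 to 76.6, and mesothelial ones to 478.6 to 489 and 424 to 427. Of the 7 macrophage markers tested, 1 was called lower and 6 were not called. The 5 endothelial markers tested went both ways, with 1 higher, 2 lower and 2 not called. All 3 adipocyte markers tested were lower, and of 5 mesothelial ones 2 were lower and 3 not called. Sequencing depth is unknown, since TPM keeps none.

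TEAD proteins bind the motif GGAATG, which reads CATTCC on the other strand. It was searched on both strands in the 250 bases before annotated transcription starts (RefSeq windows of GRCm38.p6, 8 windows for 7 of the 10 genes; Tead1, Tead4 and Ccn2 had none). Ankrd1 and Ajuba held 2 matches each, Yap1, Ccn1 and Amotl2 held 1 each, and the Amotl1 window and the Lats2 windows held none. Of all 32851 windows 12.6% held at least 1 match and 1.02% held 2 or more, and of the 12677 windows of tested genes the shares were 10.7% and 0.773%. The AP-1 motif TGANTCA, which often neighbours TEAD sites, matched none of the 8 windows. It matched 6.75% of all windows and 4.55% of the windows of tested genes. Printed below are 3 sequences that hold the motif, of 1 gene that was higher after co-culture (Ankrd1) and 2 that were lower (Ccn1 and Amotl2), with the matches in capitals and the base just before the start at the right end. Ankrd1 is at chr19:36119845-36120094 (minus strand), Ccn1 at chr3:145649986-145650235 (minus strand) and Amotl2 at chr9:102717554-102717803 (plus strand), each 5′ to 3′ in the direction of transcription.
Ankrd1: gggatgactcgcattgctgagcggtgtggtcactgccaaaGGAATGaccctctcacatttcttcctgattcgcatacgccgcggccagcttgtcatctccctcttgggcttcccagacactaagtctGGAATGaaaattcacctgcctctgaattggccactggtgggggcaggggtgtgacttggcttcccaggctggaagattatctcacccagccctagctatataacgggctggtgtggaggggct
Ccn1: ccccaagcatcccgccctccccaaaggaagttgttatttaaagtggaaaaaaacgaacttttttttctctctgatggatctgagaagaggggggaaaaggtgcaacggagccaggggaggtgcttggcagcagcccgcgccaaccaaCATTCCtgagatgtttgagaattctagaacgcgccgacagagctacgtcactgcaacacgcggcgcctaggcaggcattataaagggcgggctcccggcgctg
Amotl2: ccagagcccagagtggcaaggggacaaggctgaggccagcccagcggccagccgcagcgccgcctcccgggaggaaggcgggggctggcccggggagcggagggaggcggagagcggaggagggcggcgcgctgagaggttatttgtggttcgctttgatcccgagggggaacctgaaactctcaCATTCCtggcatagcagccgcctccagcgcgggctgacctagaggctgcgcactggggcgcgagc

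The matches in Ankrd1 began 210 and 123 bases before the start, on the sense strand. That in Ccn1 began 103 bases before the start and that in Amotl2 65 bases before it, and in both genes the match lay on the opposite strand. A match is a description of the letters and not evidence of binding.

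**Figure D1:**
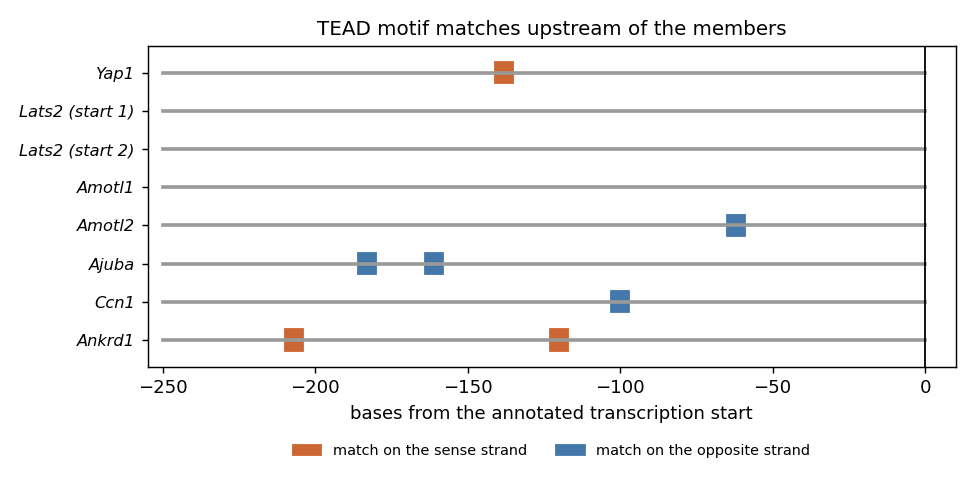
Positions of GGAATG matches in the 250 bases before the annotated start of each gene with a RefSeq window (x axis: bases from the start; grey line: the window; box: a match, coloured by strand). Ankrd1 and Ajuba held 2 matches each, and the Amotl1 window and the Lats2 windows held none.

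After Treg co-culture, Ankrd1, Ccn2 and Tead4 were well above controls, while the mean TPM of Yap1 and Tead1 differed from them by 2.62% and -0.158%. Ankrd1 rose 2.55-fold, Tead4 1.91-fold and Ccn2 1.81-fold by mean TPM. Ccn1 and Amotl2, also targets of the same factors, fell by 10.9% and 8.71%. In limma on log2(TPM + 1), at a Benjamini-Hochberg adjusted p under 0.05 over the 12405 genes tested, 4 of the 10 genes were higher (Tead4, Amotl1, Ccn2, Ankrd1) and 2 lower (Ccn1, Amotl2). Over all genes tested 37.8% were called, 19.8% higher and 18.0% lower, so many genes of this table differed between the groups. The median log2 fold change was 0.08 over the 10 genes and 0.0015 over all genes tested, and the median absolute value was 0.14 against 0.15. The control and co-culture values did not overlap for 8 of the 10 genes, against 49.3% of all genes tested. Of the 8, 5 lay higher after co-culture and 3 lower, against 25.3% and 24.0% of all genes tested. Without Treg co-culture 1 the counts were also 4 and 2, with Ajuba called higher (adjusted p = 0.0419) and Amotl1 no longer called (0.0746), and with batch as a replicate block 3 were higher and 2 lower. In bulk RNA, fewer cells that express a gene and less RNA per cell cannot be told apart.

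**Figure D2:**
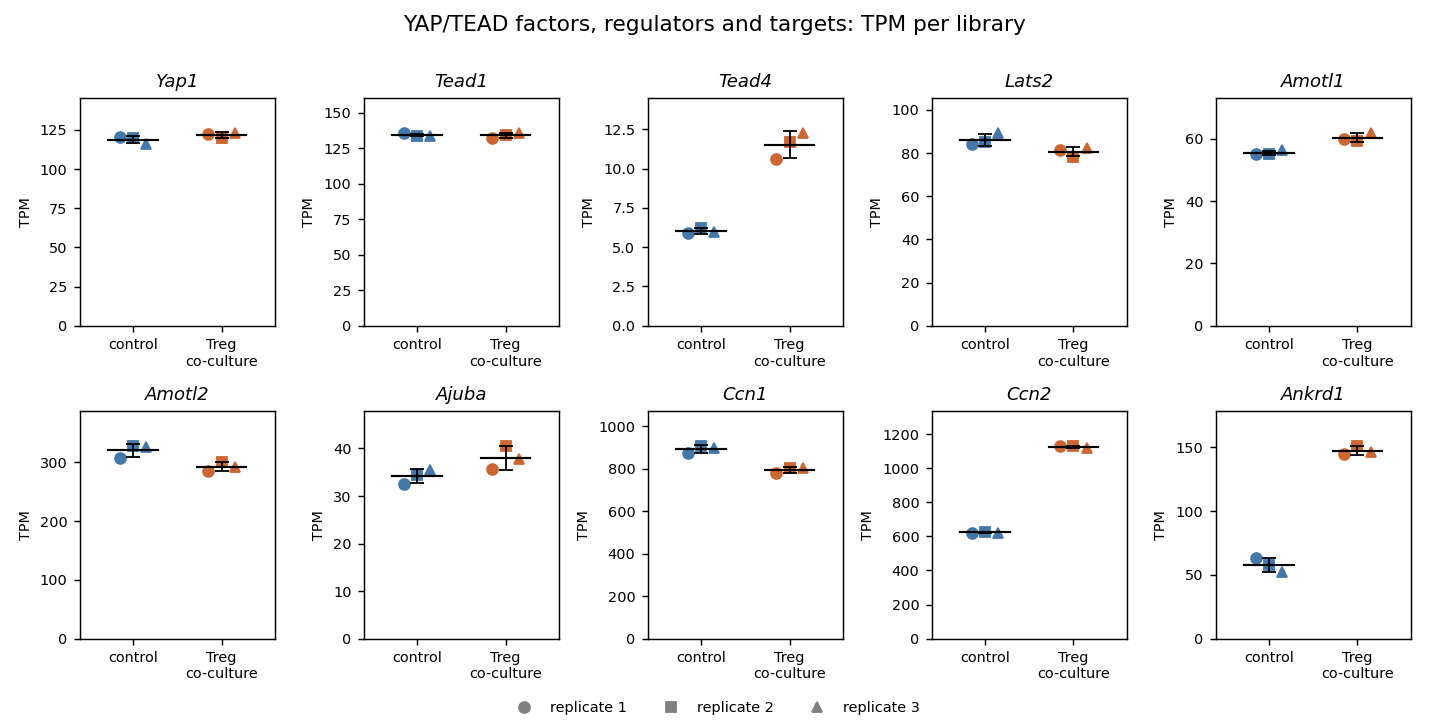
TPM (y axis, from 0) of the 10 genes in each of the 3 control and 3 Treg co-culture libraries (points, shape by replicate number), with the group mean and SD (black). Ankrd1, Ccn2 and Tead4 are far apart between the groups, whereas the values of Yap1 and Tead1 overlap.

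The coactivator Yap1 had 120.3, 119.9 and 116 TPM in the control libraries, numbered 1 to 3, against 123, 119.7 and 123 TPM in the Treg co-culture libraries of the same numbers. The groups overlap, with Treg co-culture 2 inside the control range. Its log2 fold change was 0.04 with a 95% interval of -0.03 to 0.11 (limma adjusted p = 0.393), and 89.1% of tested genes had a lower mean level. Tead1, the most abundant TEAD gene here, stood at 135, 134 and 134 TPM in controls and at 133, 134 and 136 TPM after co-culture. These ranges overlap almost entirely, and the 95% interval of the log2 fold change ran from -0.07 to 0.06 (adjusted p = 0.959). Those intervals do not show that the levels are equal, and they rest on an error that may be technical only.

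Tead4, the TEAD factor best known from trophectoderm and from muscle precursors, was the least abundant of the family and differed most. It stood at 5.87, 6.24 and 5.97 TPM in controls and at 10.6, 11.7 and 12.3 TPM after co-culture. All 3 co-culture libraries lay above all 3 controls, and Treg co-culture 1 was the lowest of the co-culture group. This was a log2 fold change of 0.83 (SE 0.09, limma adjusted p = 4.48e-05) and the differences within batches 1 to 3 were 0.75, 0.81 and 0.93. An absolute log2 fold change that large or larger was rare, since 97.3% of tested genes had a smaller one. Skeletal muscle markers moved with it, their mean summed TPM being 2.69-fold higher, and their part in this result was not tested.

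The TEAD pool as a whole hardly differed, since Tead4 is a small part of it. Summed TPM of Tead1 to Tead4 was 242 ± 5.81 in controls and 246 ± 5.97 after co-culture (SD, n = 3 each), and the groups overlap. Tead1 made up 55.6% ± 1.71 of the sum in controls and 54.5% ± 0.663 after co-culture. Tead4 made up 2.49%, 2.57% and 2.42% in the control libraries and 4.40%, 4.77% and 4.86% in the co-culture libraries. Its share was thus higher in 3 of 3 co-culture libraries by 2.19 percentage points on average (exact two-sided permutation p = 0.1, the smallest that 3 against 3 libraries allow; 0.25 adjusted over 5 such quantities). Tead2, at 57.2 ± 3.21 and 58.8 ± 0.574 TPM, and Tead3, at 44.3 ± 3.78 and 41.6 ± 3.65 TPM, missed the threshold (limma adjusted p = 0.534 and 0.390).

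**Figure D3:**
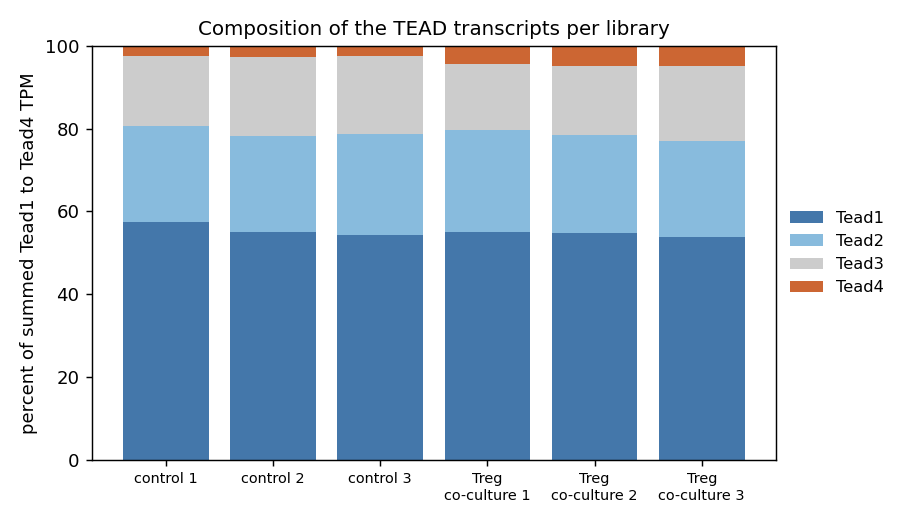
Share of each TEAD gene in the summed TPM of Tead1 to Tead4 (y axis, percent) in each of the 6 libraries (bars). Tead1 is the largest share throughout, and the Tead4 share is 2.42% to 2.57% in controls and 4.40% to 4.86% after co-culture.

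Among the partners of TEAD, Wwtr1, which encodes the YAP1 paralog TAZ, fell, and Vgll2, a muscle cofactor that binds TEAD factors, rose. Wwtr1 stood at 90.4, 94.8 and 89.7 TPM in controls and at 82.7, 82.6 and 82.8 TPM after co-culture, with no overlap. Wwtr1 fell by 0.15 on the log2 scale (SE 0.04, limma adjusted p = 0.00936). Per unit of Yap1 TPM, Wwtr1 was 0.752, 0.791 and 0.773 in controls and 0.675, 0.690 and 0.673 after co-culture (exact permutation p = 0.1, 0.25 adjusted over the same 5 quantities). Vgll2 was low in all libraries, at 0.954, 1.39 and 2.01 TPM in controls against 4.54, 4.19 and 3.98 TPM after co-culture. The log2 fold change of Vgll2 was 1.12 (SE 0.17, limma adjusted p = 0.00051), and the added pseudocount understates it. Vgll3, the most abundant of that family at 156 ± 3.57 and 154 ± 1.83 TPM, and the repressor Vgll4, at 33.9 ± 1.84 and 31.3 ± 1.81 TPM, missed the threshold (adjusted p = 0.772 and 0.180), and Vgll1 was listed at 0 in all libraries.

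The 4 regulators Lats2, Amotl1, Amotl2 and Ajuba differed by at most 0.15 in absolute log2 fold change, in either direction. Amotl2, an angiomotin that binds YAP1 and holds it in the cytoplasm, stood at 308, 328 and 326 TPM in controls and at 285, 301 and 292 TPM after co-culture. Every co-culture library lay below every control, and Amotl2 fell by 0.13 on the log2 scale (SE 0.03, limma adjusted p = 0.00943). The differences within batches were -0.11, -0.12 and -0.16, and the call was lost without the mean-variance trend (adjusted p = 0.0731, the range over all alternatives being 0.00313 to 0.0731). Its paralog Amotl1 stood at 55.0, 55.2 and 56.3 TPM in controls and at 60.0, 59.3 and 61.9 TPM after co-culture. These groups do not overlap either, and the direction is opposite to that of Amotl2. Amotl1 rose by a log2 fold change of 0.12 (SE 0.04, limma adjusted p = 0.0357). That call was lost with the replicate block (0.0539), without the trend (0.0572) and without any 1 of the 6 libraries (0.0534 to 0.120), the range over all alternatives being 0.0301 to 0.120. The ratio of Amotl2 to Amotl1 TPM, examined after the values were seen, was 5.77 ± 0.173 in controls and 4.84 ± 0.199 after co-culture, without overlap.

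Lats2, the kinase that phosphorylates YAP1 and is itself a YAP1 target, stood at 84.1, 85.1 and 89.3 TPM in controls and at 81.4, 78.3 and 82.5 TPM after co-culture. The co-culture values are all below the controls, by a gap of 1.61 TPM that is smaller than the range inside either group (5.21 and 4.28 TPM). The log2 fold change was -0.09 (95% interval -0.18 to -0.0058) and missed the threshold after adjustment (limma adjusted p = 0.0882), and it passed under quantile normalization (-0.12, adjusted p = 0.0351; 0.0351 to 0.262 over all alternatives). The LIM protein gene Ajuba stood at 32.5, 34.4 and 35.4 TPM in controls and at 35.7, 40.6 and 37.8 TPM after co-culture. Control 3 and Treg co-culture 1 nearly touch. The log2 fold change of Ajuba was 0.15 (95% interval 0.02 to 0.28, adjusted p = 0.0723), and it passed without Treg co-culture 1 (0.19, adjusted p = 0.0419; 0.0419 to 0.236 over all alternatives).

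The targets Ccn1 and Ccn2 encode matricellular proteins, secreted factors that bind integrins and heparan sulfate and modulate adhesion and growth factor signals. Both genes are abundant, above at least 98.7% of tested genes in mean TPM, and they moved in opposite directions. Ccn2, also called connective tissue growth factor and also a target of TGF-beta signals, stood at 622, 627 and 621 TPM in controls and at 1128, 1131 and 1120.0 TPM after co-culture. Its replicates spanned 5.72 TPM in the control group and 11.3 TPM in the other, against a difference of means of 503 TPM. Ccn2 rose by a log2 fold change of 0.85 (SE 0.02, limma adjusted p = 5.75e-10), with 0.86, 0.85 and 0.85 within batches 1 to 3.

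Ccn1, also called Cyr61 and also an immediate early gene, stood at 873, 909 and 897 TPM in controls and at 779.5, 805 and 802 TPM after co-culture. All 3 co-culture libraries were below all controls, though by far less than Ccn2 was above. Ccn1 fell by 0.17 on the log2 scale (SE 0.02, limma adjusted p = 0.000253), with -0.16, -0.17 and -0.16 within batches. The ratio of Ccn2 to Ccn1 TPM, examined after the values were seen, was 0.712, 0.690 and 0.693 in controls and 1.45, 1.41 and 1.40 after co-culture. Ccn1 was thus the more abundant of the pair in every control, and Ccn2 in every co-culture library. Their summed TPM was 1516 ± 20.7 in controls and 1922 ± 14.5 after co-culture.

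Ankrd1 encodes a muscle ankyrin repeat protein that shuttles between the sarcomere and the nucleus and is induced by stretch. It stood at 63.0, 57.8 and 52.5 TPM in controls and at 145, 151 and 146 TPM after co-culture. The lowest co-culture library was 81.8 TPM above the highest control. Ankrd1 rose by a log2 fold change of 1.34 (SE 0.06, limma adjusted p = 7.76e-08), with 1.19, 1.37 and 1.46 within batches, and 99.6% of tested genes had a smaller absolute value. Per 1000 TPM of the 12 summed skeletal muscle markers, a quantity chosen after the values were seen, Ankrd1 was 51.1, 45.7 and 40.1 TPM in controls against 42.7, 43.9 and 43.0 TPM after co-culture. On that scale the groups overlap, with the controls alone running from 40.1 to 51.1 TPM. The part of skeletal muscle transcripts in the level of Ankrd1 was not tested. On the same scale Tead4 was 4.75 ± 0.185 TPM in controls against 3.37 ± 0.238 TPM after co-culture, without overlap. Its fold of mean TPM (1.91) was below that of the summed markers (2.69).

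Relatives of these targets outside the 10 genes also moved apart. Of the other CCN family genes, Ccn3 fell from 218 ± 10.5 to 114 ± 1.94 TPM (limma adjusted p = 5.17e-08). Ccn5, which lacks the C-terminal domain of its relatives, fell from 436 ± 2.09 to 256 ± 2.25 TPM (limma adjusted p = 5.90e-09). Ccn4 rose from 139 ± 3.74 to 168 ± 7.84 TPM (adjusted p = 0.000358), and Ccn6 was at or below 0.101 TPM in every library. The other muscle ankyrin repeat genes both rose: Ankrd2 from 3.21 ± 0.923 to 10.4 ± 0.894 TPM and Ankrd23 from 13.5 ± 1.25 to 18.9 ± 1.95 TPM (adjusted p = 4.46e-05 and 0.00287).

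**Figure D4:**
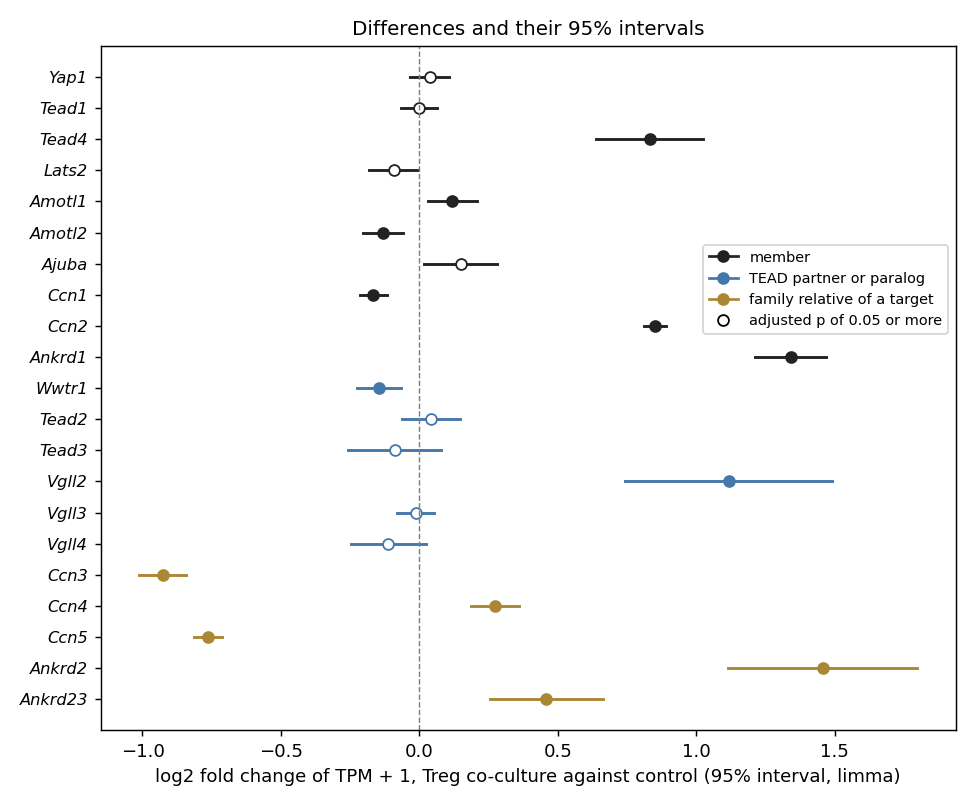
Log2 fold change of TPM + 1 (x axis, Treg co-culture against control) with its 95% interval from limma for the 10 genes (black), TEAD partners and paralogs (blue) and family relatives of the targets (ochre), where open points missed an adjusted p of 0.05. Ankrd1, Ccn2 and Tead4 lie between 0.83 and 1.34, and the intervals of Yap1 and Tead1 include 0.

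Upstream, the atypical cadherins Fat4 and Dchs1 fell. Of 28 further Hippo pathway genes, all tested, 3 were higher, 7 lower and 18 not called, with a median log2 fold change of -0.03. The share called over all genes tested was 37.8%, near that of this list. Fat4 fell from 12.7 ± 0.468 to 7.15 ± 0.253 TPM (log2 fold change -0.75, limma adjusted p = 4.13e-05), and its ligand Dchs1 from 9.14 ± 0.717 to 6.07 ± 0.324 TPM (adjusted p = 0.00159). Frmd6, a FERM protein upstream of the kinases, fell (-0.33), as did the MST scaffold Sav1 (-0.27). Rassf1, which binds MST kinases, rose (0.31), as did the casein kinase gene Csnk1e (0.23). Both MST genes missed the threshold, Stk3 at a log2 fold change of -0.04 and Stk4 at 0.17, and so did Lats1 at 0.01, these 3 being named for their role after the values were seen.

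Other published targets moved in either direction. Of 17 further YAP/TAZ target genes, all tested, 5 were higher and 7 lower, with a median of -0.13. The shares called over all genes tested were 19.8% higher and 18.0% lower. Tissue factor F3 fell from 1436 ± 8.76 to 1009 ± 8.44 TPM, the growth factor binding protein Igfbp3 from 337 ± 6.64 to 275 ± 6.54 TPM and the matrix protein Ccdc80 from 805 ± 7.03 to 704 ± 9.68 TPM. The receptor kinase Axl rose from 444 ± 9.55 to 516 ± 5.26 TPM, the membrane repair and fusion gene Myof from 190.6 ± 1.71 to 220.2 ± 3.74 TPM and the Rac activator Dock5 from 12.6 ± 0.261 to 17.7 ± 0.204 TPM. Their limma adjusted p-values ran from 1.39e-08 for F3 to 0.000316 for Dock5.

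Some of the 10 genes are also driven by other pathways, and 3 lists of such pathways are given here without a test between them. Over all genes tested 19.8% were called higher and 18.0% lower. Of 16 genes of the actin-regulated MRTF/SRF programme, 11 were higher and 1 lower (median 0.15), including the fibronectin receptor subunit Itga5 (0.63), the actins Actb (0.35) and Acta2 (0.22), the filamin Flna (0.19), the tropomyosin Tpm1 (0.17) and Tagln (0.13). Of 7 TGF-beta response genes, 6 were higher and none lower (median 0.35). The activin subunit Inhba rose by 0.90, the feedback inhibitor Smad7 by 0.78, the Smad corepressor Skil by 0.67, Pmepa1 by 0.35, the secreted matrix protein Tgfbi by 0.32 and the ligand Tgfb1 by 0.28 in log2 fold change. The ligand Tgfb2, counted among the further YAP/TAZ targets and named after the values were seen, fell by 0.32 (limma adjusted p = 0.00616). Of 12 immediate early genes, 1 was higher and 5 lower (median -0.15). Fos (-1.31), Egr1 (-1.13), Ier2 (-0.96), Klf4 (-0.39) and Junb (-0.12) fell, and the AP-1 subunit Fosl1 (0.88) was the 1 that rose. The call of Junb was lost without control 2 (limma adjusted p = 0.0944), control 3 (0.0752) or Treg co-culture 3 (0.0898) and without the trend (0.0891), the range over all alternatives being 0.00873 to 0.0944. Without Treg co-culture 1 the higher count of that list was 2, and the part of these pathways in the levels of Ccn1, Ccn2 and Ankrd1 was not tested.

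**Figure D5:**
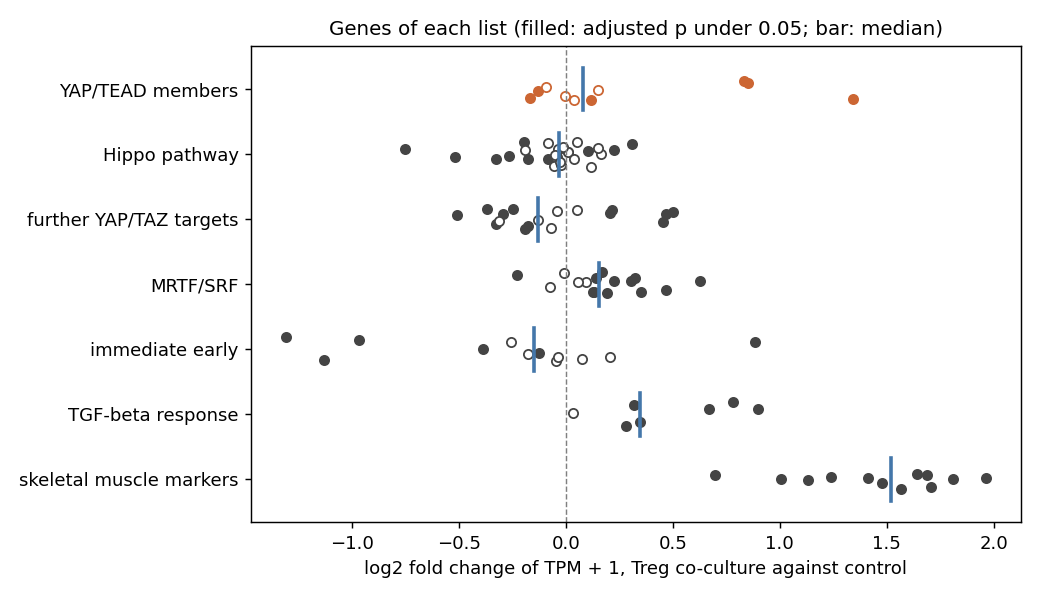
Log2 fold change of TPM + 1 (x axis, Treg co-culture against control) of each tested gene (points, filled where the adjusted p was under 0.05) in the 10 YAP/TEAD genes, 5 pathway lists and the skeletal muscle markers, with list medians (blue bars). The 10 YAP/TEAD genes spread from -0.17 to 1.34, and 12 of 12 muscle markers lie above 0.

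Distances between centred log2(TPM + 1) values over the 6 libraries were computed for 8950 tested genes that averaged 10 TPM or more. Genes of the lists, unnamed gene models and pseudogenes were then left out. Of the rest, the genes most like Ccn2 were Megf10, Hjv and Unc5b, at distances of 0.08, 0.09 and 0.09. Megf10, a receptor of muscle satellite cells, went from 10.6 ± 0.411 to 19.9 ± 0.456 TPM. Hjv, a BMP coreceptor of muscle and liver, went from 6.83 ± 0.266 to 13.5 ± 0.348 TPM, and the netrin receptor Unc5b from 94.3 ± 3.43 to 171 ± 5.59 TPM. Nearest to Yap1 were Anxa1, Gfpt1 and Rpl15, at distances of 0.02, 0.03 and 0.03. These distances describe 6 libraries, and those to Ccn2 mostly reflect the difference between the groups. Yap1, Anxa1, Gfpt1 and Rpl15 all missed the threshold (limma adjusted p = 0.393, 0.141, 0.467 and 0.114).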

How the data were processed

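Messenger RNA was sequenced from 6 libraries of primary mouse ADSCs, 3 control and 3 Treg co-culture. The authors deposited TPM values in 1 table, a column per library and a row per NCBI Gene number, and each column sums to about 1000000. TPM corrects for gene length and keeps no depth, and when abundant transcripts rise the shares of the rest drop. Per the submitters' processing notes, the builds were GRCm38, mm10 and GRCm39, with no role given. Aligner, counter and annotation: not given in the sources used here, nor is how reads shared by paralogs such as the TEAD genes were assigned.

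Of the gene numbers, 99.1% matched a symbol in a RefSeq table of GRCm38.p6. The test was run on log2(TPM + 1) for genes averaging at least 1 TPM over the 6 libraries, with limma 3.58.1 in R 4.3.3 (mean-variance trend, Benjamini-Hochberg over 12405 genes, threshold 0.05). Shares were tested by exact permutation over 20 arrangements. Tables and plots used Python 3.11.15, pandas 2.3.3 and matplotlib 3.10.9. The labels give same-numbered libraries a shared batch. Deviations from group means within a batch had correlations of 0.0115, -0.0146 and 0.0040 (batches 1 to 3), against -0.0606 to 0.0653 for other pairs across groups. On simulated data for this comparison (12405 genes), limma recovered 93% of 100 genes changed by 1 and 67% of 100 changed by 0.5 on the log2 scale, with 4 false calls. The noise was drawn as independent normal values and only those genes were changed, whereas 37.8% of genes were called in the data. Changes below 0.5 were not simulated, so these figures do not give the recovery of smaller ones.

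Members and lists were chosen with earlier results of these data known. A gene of the lists is not reported here and was left out of its list. Named were all 10 genes, every tested TEAD partner, every CCN and ankyrin repeat relative, up to 6 called genes of lowest adjusted p in each other pathway list, up to 3 most abundant markers of each cell type, and the 3 genes nearest to Ccn2 and to Yap1. Genes that were named outside this rule are said to be so, apart from Vgll1 and the T cell genes at 0.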

Additional observations from a re-analysis of the deposited data

How the results depend on the processing

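The settings varied were the pseudocount (0.1, 0.01), the filter (none, 5 TPM), the scaling (quantiles, median of ratios, or totals that leave out mitochondrial and ribosomal protein genes), eBayes (no trend, robust), the threshold (0.01), the replicate block and the libraries, each left out in turn. Of 170 such values for the 10 genes, 155 kept their direction and their side of the threshold, 10 lost the call (9 of them Amotl1, 1 Amotl2), 2 gained it and 3 turned sign. The 3 were of Tead1: 0.0023 with mitochondrial and ribosomal protein genes left out, 0.0033 without control 1 and 0.0064 without Treg co-culture 1, with a range of -0.011 to 0.0064 over the libraries left out. Ikzf2, a T cell marker that missed the threshold, ranged from -0.029 to 0.087 over them. Over all alternative settings, Ankrd1 ranged from 1.28 to 1.40, Ccn2 from 0.85 to 0.90, Tead4 from 0.79 to 0.93 and Ccn1 from -0.18 to -0.15. Each was past the threshold of 0.05 throughout.

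The lower count of the 10 genes was 1 without the trend. The higher count of the TEAD partners was 0 with a filter of 5 TPM, which leaves out Vgll2, and the lower count of the Hippo list was 4 at a threshold of 0.01. Over all genes, 1626 were higher and 1417 lower at that threshold, against 2454 and 2234. With each library left out, the higher count of immediate early genes was 1 to 2. With the replicate block, 3 of the 10 genes were higher and 2 lower; among the 10 and the named genes of the lists, it changed no call but that of Amotl1. The share of Tead4 rose by 2.10 to 2.32 percentage points with each library left out. Scaling moved the median of all genes by at most 0.0053. Depth is unknown, so for low genes such as Vgll2 the counting error cannot be given.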
